A study of Aspergillus aculeatus with 24 samples.

Results

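The comparison described here set strain HUT2365 of Aspergillus aculeatus against strain BCC199 of the same species, both grown on wheat bran and soybean (below, wheat bran-soybean). It was formed from the labels of strain and medium alone, which took 4 HUT2365 and 4 BCC199 libraries, 8 of the 24 in the series. Each strain had 2 libraries, replicates A and B, from mycelium collected on day 6 (144 h) and 2 from mycelium collected on day 3 (72 h), all from aerobic culture at 30 °C. No mutation, transgene or added agent is named in the labels of either strain. The same strains in a medium with glucose (8 libraries) and another strain, BCC56535, in wheat bran-soybean (4 libraries) are used below only to place the difference. The series description says that its strains differ in how well they break down plant biomass and that they were cultured under a control and a cellulase-inducing condition. The labels do not say which medium was which, and glucose is taken as the control here. Replicates are labelled as biological, but the labels do not say that they came from separate cultures, so the p-values below reflect how far these libraries scatter, and that scatter may be technical.

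Aspergillus aculeatus is a filamentous fungus known for the cellulases, hemicellulases and pectinases that it secretes. In Aspergillus species, genes for such enzymes are typically switched on by transcription factors that respond to sugars released from plant cell walls, and are kept low by carbon catabolite repression while glucose is plentiful. Wheat bran and soybean supply cell wall polysaccharides and protein, so secreted hydrolases and proteases are among the products such a medium is known to call for. The deposited table names its features by ID only. A search of the 11152 genes in the reference annotation of the species found 0 matches for the 8615 IDs, so no ID is assigned a gene name, an enzyme family or a sequence here, and whether any ID named below encodes a cellulase was not tested.

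The 8 libraries held between 19248977 and 26865539 reads. In each, between 183 and 245 IDs had 0 reads, and the 10 highest IDs took between 4.30% and 6.35% of the reads. Values are given as normalized reads, the deposited values without the constant of 1 that they carry, and 1 read was worth between 0.882 and 1.49 normalized reads. The HUT2365 library of day 3, replicate B, was the smallest. The log2 difference between it and its partner had an SD over IDs of 0.849, the largest among these pairs. That SD was 0.537 between the HUT2365 libraries of day 6, 0.453 between the BCC199 libraries of day 6 and 0.358 between those of day 3. Such an SD does not tell which library of a pair departed. The main counts are given with and without the smallest library.

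The strains differed over most of the measured transcriptome. Of the 8340 IDs with enough reads to test, 2888 (34.6%) were higher in HUT2365 and 2701 (32.4%) were lower, 5589 (67.0%) in all, at an adjusted p under 0.05 (limma on log2 values with day as a covariate, two-sided, Benjamini-Hochberg). Without the HUT2365 library of day 3, replicate B, 5551 were called. The median size of the difference over all IDs tested was 0.90 on the log2 scale, and the median difference itself was 0.04. Because whole mycelium was sequenced, fewer cells of a type and less RNA per cell cannot be told apart in any of these differences. All 4 HUT2365 libraries lay above all 4 BCC199 libraries for 2488 IDs and below them for 2337, which made 4825 IDs without overlap (57.9%). With that library left out, 8318 IDs were tested, and the other 3 HUT2365 libraries lay above those of BCC199 for 2626 and below them for 2525. In the 8 libraries, strain took 77.2% of the variance in log2 level, day 9.51%, the strain by day term 6.13% and the spread between replicates 7.14%.

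Of the called IDs, 3660 differed by at least 2-fold and 1929 by less. At least 4-fold, 837 IDs were higher in HUT2365 and 687 lower, and at least 16-fold, 242 were higher and 181 lower. At least 100-fold, 54 IDs were higher and 51 lower. Without the HUT2365 library of day 3, replicate B, the counts at 4-fold were 813 and 723, those at 16-fold 225 and 192, and those at 100-fold 58 and 56. Large folds were mostly found at a low mean log2 level over both strains. When the IDs were cut by this mean into 4 sets of 2085, 68.6% were called in the lowest set and 66.2% in the highest. Called at 4-fold or more were 41.7% in the lowest set and 6.81% in the highest. A strain with almost no reads lowers this mean, so a large fold by itself moves an ID to a lower set. These shares therefore do not show that large folds belong to weakly expressed IDs. At the other end, the 95% interval of the difference lay within 2-fold either way for 2635 IDs, 1918 of which were not called (2592 and 1908 without that library).

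**Figure D1:**
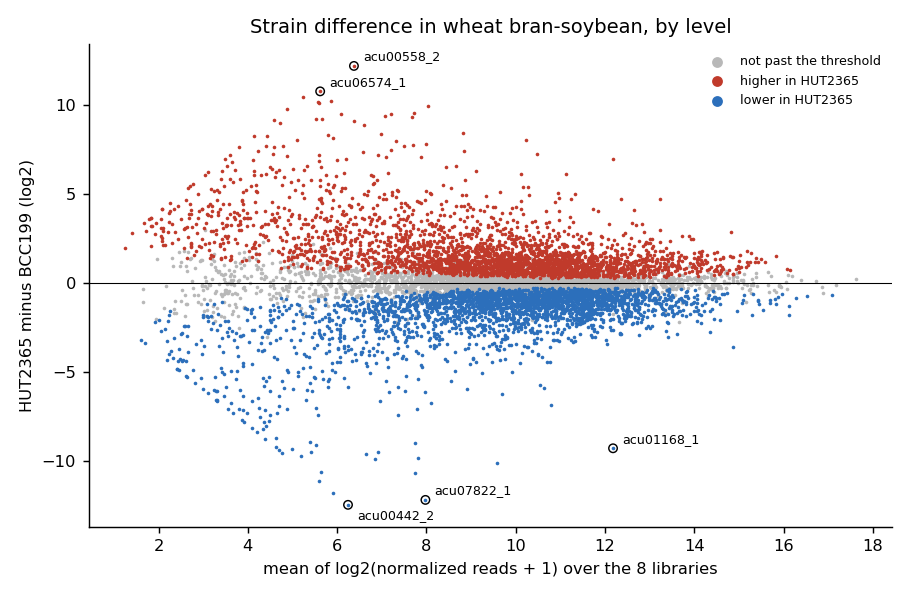
The log2 difference between HUT2365 and BCC199 in wheat bran-soybean (vertical axis, above 0 where HUT2365 was higher) is plotted against the mean log2 level over the 8 libraries (horizontal axis), 1 point for each of the 8340 IDs tested. Red points passed the threshold as higher in HUT2365 (2888), blue points as lower (2701), grey points did not pass, and circles mark 5 IDs described in the text. The cloud is widest at the left, while acu01168_1 lies far below 0 at a high mean level.

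The calls covered a large part of the RNA of either strain. IDs called higher in HUT2365 took between 41.6% and 46.7% of the reads of the HUT2365 libraries and between 18.1% and 20.0% of those of BCC199. IDs called lower took between 17.8% and 21.6% of the reads in HUT2365 and between 43.3% and 46.1% in BCC199. These shares describe IDs that were chosen by the same difference, so they carry no test of their own. The 100 IDs with the highest mean in each strain had 57 in common. Of the top 100 of HUT2365, 47 were called higher and 11 lower in HUT2365, and of the top 100 of BCC199, 46 were called lower and 8 higher. Over all IDs tested, 34.6% were called higher and 32.4% lower. Ranking by the mean of a strain favours IDs that are higher in that strain, so these counts carry no test of their own either.

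The 10 IDs with the highest mean in each strain had 5 in common. Of the 10 of HUT2365, 3 were called higher and 1 lower in HUT2365. Of the 10 of BCC199, 6 were called lower and 0 higher in HUT2365. The limit given for the top 100 holds here too. acu03175_1, the highest in both strains, was not called (log2 difference 0.23, adjusted p = 0.52, limma). Among these IDs, acu06581_1, acu03489_1 and acu01168_1 were examples that parted the strains. The first 2 were chosen after their values were seen, and acu01168_1 meets the naming rule in glucose. acu06581_1 had 84629 and 58144 normalized reads in HUT2365 on day 6 and 85865 and 213594 on day 3, against 36310.1 and 35325 in BCC199 on day 6 and 34378 and 32123 on day 3. Every HUT2365 library was above every BCC199 library, with the highest value in replicate B of day 3 (log2 difference 1.50, SE 0.34, adjusted p = 0.0043, limma). By day, its difference passed on day 3 (2.03, SE 0.40, adjusted p = 0.0026) but not on day 6 (0.97, SE 0.40, adjusted p = 0.066, limma). acu03489_1 had 8986 and 6201 normalized reads in HUT2365 on day 6 and 9506 and 9845 on day 3, against 60399.9 and 55643 in BCC199 on day 6 and 193592 and 172741 on day 3. It was lower in all 4 HUT2365 libraries, and the BCC199 libraries of day 3 were well above those of day 6 (log2 difference -3.60, SE 0.27, adjusted p = 1.3e-05, limma). The gap in acu01168_1 was wider still. It had 99.0 and 106 normalized reads in HUT2365 on day 6 and 170.2 and 626 on day 3, against 144113 and 152538 in BCC199 on day 6 and 95896 and 87465 on day 3 (log2 difference -9.31, SE 0.53, adjusted p = 3.5e-06, limma). This ID was the ninth most abundant of BCC199, and the HUT2365 library of day 3, replicate B, held the highest of the HUT2365 values.

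The largest differences were of IDs with high levels in a strain and almost no reads in the other. acu00558_2 had 3738 and 3781 normalized reads in HUT2365 on day 6 and 5701 and 12951 on day 3. In BCC199 it had 1 read in the 4 libraries together, a ratio of 22686 (95% exact binomial interval 4071 to 896083), and the fitted difference was 12.19 (log2, SE 0.46, adjusted p = 4.5e-07, limma). Such intervals, and the bounds given below, cover counting error only. acu06574_1 was next, with 1420.0 and 1049 normalized reads in HUT2365 on day 6 and 4198 and 2816 on day 3. BCC199 again held 1 read in all, which gave a ratio of 9091, interval 1631 to 359114 (log2 difference 10.76, SE 0.36, adjusted p = 3e-07, limma). For both IDs, all HUT2365 libraries were far above all BCC199 libraries, and the HUT2365 libraries of day 3 were above those of day 6.

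In the other direction, acu00442_2 had 0 reads in all 4 HUT2365 libraries, against 3713 and 3546 normalized reads in BCC199 on day 6 and 9259 and 8891 on day 3. Taken against 3 reads per library, the limit that a count of 0 allows, it was at least 1924-fold lower in HUT2365 (adjusted p = 1.8e-07, limma). acu07822_1 had 6.67 and 0 normalized reads in HUT2365 on day 6 and 1.76 and 7.47 on day 3, against 11208 and 15593 in BCC199 on day 6 and 16627 and 31006 on day 3. The HUT2365 values came to 13 reads in all, and the ratio of BCC199 to HUT2365 was 5589.7, interval 3269 to 10498 (log2 difference -12.21, SE 0.63, adjusted p = 2.2e-06, limma). No library of either strain came near those of the other for these IDs. The 51 IDs lower in HUT2365 by at least 100-fold were summed in each HUT2365 library. The sums were 339 and 377 normalized reads on day 6 and 460 and 1241 on day 3. The library with the highest sum was replicate B of day 3. It was the highest of the 4 for 18 of the 51 IDs, and its part in these values was not tested.

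**Figure D2:**
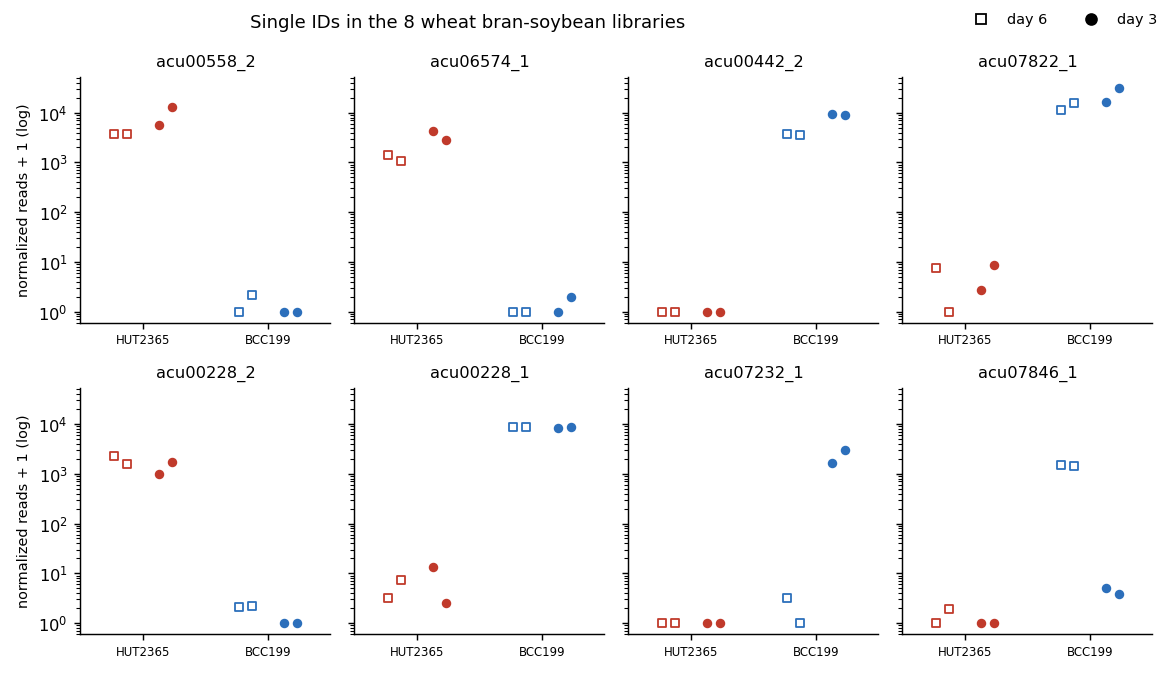
Normalized reads plus 1 (log axis) of 8 IDs in the 8 wheat bran-soybean libraries, 1 panel per ID, with HUT2365 in red at the left and BCC199 in blue at the right. Open squares are day 6 and filled circles day 3, each point is 1 library, and a value of 1 on the axis means 0 reads. acu00558_2, acu06574_1 and acu00228_2 are high in HUT2365 alone, acu00442_2, acu07822_1 and acu00228_1 in BCC199 alone, and acu07232_1 and acu07846_1 in BCC199 on 1 day each.

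For some IDs a strain gave no read in either medium. BCC199 had 0 reads in all 8 of its libraries, wheat bran-soybean and glucose, for 45 IDs, and HUT2365 had 0 reads in all 8 of its own for 37, with 9 IDs in both sets. Few of them were abundant in the other strain: 2 of the 45 had a mean of at least 100 normalized reads in HUT2365 in wheat bran-soybean, and 8 of the 37 had such a mean in BCC199. The first pair was acu00027_4, with 321 and 311 normalized reads in HUT2365 on day 6 and 239 and 376 on day 3, and acu02380_1, with 163 and 115 on day 6 and 144 and 164 on day 3. They were at least 98.2-fold and at least 46.2-fold higher in HUT2365, and both had a mean of at least 100 normalized reads in HUT2365 in glucose as well.

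The highest of the 8 IDs were acu00394_1 and acu00394_2, which share a number prefix. With 0 reads in every HUT2365 library of both media, acu00394_1 had 951 and 759 normalized reads in BCC199 on day 6 and 379 and 725 on day 3, and was at least 213-fold lower in HUT2365. acu00394_2 had 1208 and 569 normalized reads in BCC199 on day 6 and 349 and 579 on day 3, and was at least 205-fold lower in HUT2365. In glucose these IDs had few reads in BCC199 too, with means of 5.47 ± 5.94 for acu00394_1 and 1.43 ± 1.29 for acu00394_2 (SD, n = 4). In wheat bran-soybean alone, 93 IDs had 0 reads in the 4 BCC199 libraries and 72 in the 4 HUT2365 libraries. Of these, 8 had a mean of at least 100 normalized reads in HUT2365 and 15 in BCC199. The strain with 0 reads in wheat bran-soybean had reads in glucose for 6 of those 8 IDs and for 7 of those 15. Genome sequences of the strains were not analysed here, and whether 0 reads means that an ID was present but not expressed was not tested.

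IDs consist of a number prefix, whose meaning the files do not state, and a member number. Of the tested IDs, 946 shared a prefix with another, over 403 prefixes. They were called about as often as the rest, 64.9% against 67.3%, but 11.1% of them were called at 16-fold or more, against 4.30% of the rest, a difference that was not tested. In 205 prefixes at least 2 members were called. Of these, 107 had members called in both directions, 57 had called members that were all higher in HUT2365 and 41 had called members that were all lower. Since the calls over all IDs were also split between 2888 higher and 2701 lower, nothing is read from these counts about prefixes. For 156 prefixes a single member was called, and for 42 none.

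The widest such split was in prefix acu00228. acu00228_2 had 2323 and 1573 normalized reads in HUT2365 on day 6 and 1005 and 1705 on day 3, and 2 reads in BCC199 in all, a ratio of 3053, interval 845 to 25213 (log2 difference 10.08, SE 0.30, adjusted p = 1.8e-07, limma). acu00228_1 had 2.22 and 6.40 normalized reads in HUT2365 on day 6 and 12.3 and 1.49 on day 3, against 8892 and 8760.2 in BCC199 on day 6 and 8188 and 8752 on day 3 (log2 difference -10.67, SE 0.50, adjusted p = 1.4e-06, limma). So each strain gave many reads for 1 member of the pair and almost none for the other. Whether the strains used different genes here was not tested. The members summed to 1657 ± 537 normalized reads in HUT2365 and 8649 ± 314 in BCC199 (SD, n = 4 each), so the sum also differed. In glucose the same split was present, at log2 differences of 9.50 for acu00228_2 (SE 0.38, adjusted p = 3.1e-07) and -10.07 for acu00228_1 (SE 0.27, adjusted p = 7e-08, limma).

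Prefix acu00000 gave the next widest split. acu00000_5 had 5764 and 5331 normalized reads in HUT2365 on day 6 and 8797 and 17500.3 on day 3, against 4.39 and 4.68 in BCC199 on day 6 and 10.3 and 13.1 on day 3 (log2 difference 9.95, SE 0.24, adjusted p = 1.8e-07, limma). acu00000_2 had 61.2 and 35.6 normalized reads in HUT2365 on day 6 and 30.9 and 62.7 on day 3, against 1742 and 1647 in BCC199 on day 6 and 853 and 931 on day 3 (log2 difference -4.73, SE 0.30, adjusted p = 5.8e-06, limma). Of the 6 tested members of this prefix, 2 were called higher and 2 lower. The treatment of reads that fit more than 1 ID was not given in the sources used here, so values of IDs that share a prefix are uncertain, and this was not tested. Among the 78 prefixes whose opposite members had means of at least 100 normalized reads in their higher strain, 6 had a member 16-fold or more apart in each direction.

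The most closely measured IDs were acu07128_1 and acu03563_1, which had the narrowest 95% intervals among IDs with means of at least 100 in both strains. acu07128_1 had 3627 and 3634 normalized reads in HUT2365 on day 6 and 3379.7 and 3225 on day 3, against 5823 and 5836 in BCC199 on day 6 and 5344 and 5419.9 on day 3 (log2 difference -0.69, interval -0.91 to -0.48, adjusted p = 0.00028, limma). acu03563_1 had 3372 and 3366 normalized reads in HUT2365 on day 6 and 3747 and 3775 on day 3, against 2160.1 and 2211 in BCC199 on day 6 and 2549.7 and 2586 on day 3 (log2 difference 0.59, interval 0.37 to 0.81, adjusted p = 0.00074, limma). Neither ID overlapped between the strains. Differences of less than 2-fold could thus pass where the replicates lay this close.

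The next question was whether the strains differed alike on both days. On day 6, 5005 IDs were called (60.0%), 2555 higher in HUT2365 (30.6%) and 2450 lower (29.4%), and on day 3, 5480 IDs (65.7%), 2811 higher (33.7%) and 2669 lower (32.0%; limma, 4 group means). The days use different libraries but share a single estimate of the spread per ID. The same direction was called on both days for 3966 IDs, which is 79.2% of the calls of day 6 and 72.4% of those of day 3, and opposite directions were called for 138. Across the 8340 IDs, which are not independent replicates, the differences of the days had r = 0.855 and Spearman's rho = 0.818. A further 901 IDs were called on day 6 alone and 1376 on day 3 alone, which does not by itself show that the difference changed. Without the HUT2365 library of day 3, replicate B, the calls numbered 5657 for day 6 and 5627 for day 3, with 4273 IDs called alike and 190 oppositely (r = 0.851).

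That change was tested by the strain by day interaction, the difference on day 6 minus the difference on day 3. It passed for 927 of 8340 IDs (11.1%), 392 above 0 (4.70%) and 535 below 0 (6.41%; limma, Benjamini-Hochberg). Among the 927, the same direction was called on both days for 340 and opposite directions for 138. A difference was called on day 6 alone for 177 and on day 3 alone for 272. A missing call does not show that the strains were alike on that day. The difference was wider on day 6 for 355 and on day 3 for 572. In 562 of them BCC199 had the larger change between the days and in 365 HUT2365 had, and in 652 the strains changed in opposite directions. The 927 IDs were chosen because these changes differed, which favours opposite directions, so these counts carry no test of their own. The count of 927 depended on single libraries. It was 256 and 300 without either BCC199 library of day 3 (replicates A and B), 418 and 338 without either of day 6, and 1591 and 1439 without either HUT2365 library of day 3.

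**Figure D3:**
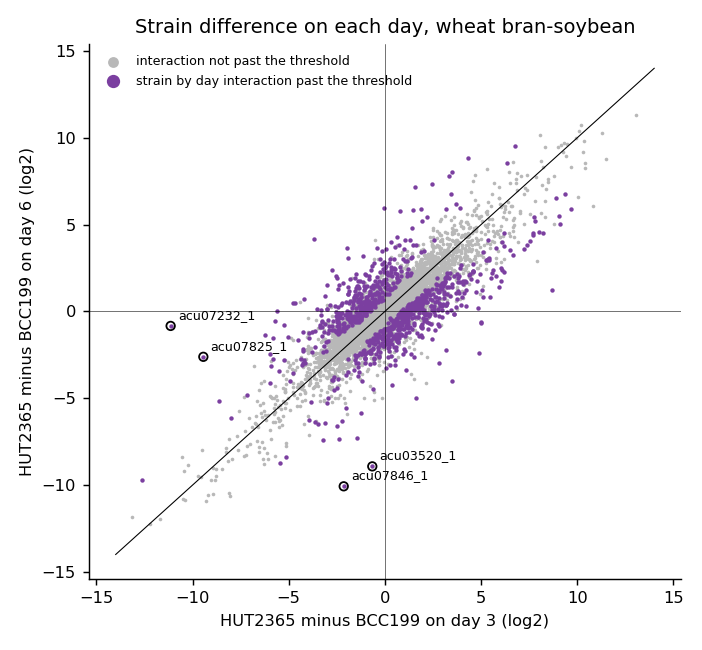
The log2 difference between HUT2365 and BCC199 on day 6 (vertical axis) is plotted against that on day 3 (horizontal axis) for the 8340 IDs tested in wheat bran-soybean, with the line of equal differences. Purple points passed the strain by day interaction (927 IDs), grey points did not, and circles mark 4 IDs described in the text. Most points follow the line (r = 0.855), and the circled IDs lie far from it.

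In wheat bran-soybean, the IDs with the largest interactions were expressed in BCC199 mainly on a single day and hardly at all in HUT2365. acu07232_1 had 0 reads in all 4 HUT2365 libraries, against 2.19 and 0 normalized reads in BCC199 on day 6 and 1671 and 3058 on day 3. For day 3 this put HUT2365 at least 664-fold lower, while on day 6 no fold can be given (interaction 10.31 on the log2 scale, SE 0.99, adjusted p = 0.0013, limma). acu07825_1 had 0 and 2.74 normalized reads in HUT2365 on day 6 and 0 and 1.49 on day 3, against 6.58 and 17.6 in BCC199 on day 6 and 902 and 1336 on day 3 (interaction 6.83, SE 1.15, adjusted p = 0.010, limma). Its interaction no longer passed without either BCC199 library of day 3, at an adjusted p of 0.052 without replicate A and 0.062 without replicate B. Both IDs were thus day 3 transcripts of BCC199 in this medium.

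The reverse order of days was seen for acu03520_1 and acu07846_1. acu03520_1 had 1.11 and 0.914 normalized reads in HUT2365 on day 6 and 0 and 2.99 on day 3, against 704 and 1356 in BCC199 on day 6 and 4.13 and 0.935 on day 3 (interaction -8.27, SE 1.15, adjusted p = 0.0054, limma). acu07846_1 had 0 and 0.914 normalized reads in HUT2365 on day 6 and 0 in both libraries of day 3, against 1527 and 1454 in BCC199 on day 6 and 4.13 and 2.80 on day 3 (interaction -7.93, SE 0.78, adjusted p = 0.0014, limma). In glucose, acu03520_1 was abundant, with means of 39198 ± 5954.5 normalized reads in BCC199 and 1790 ± 374 in HUT2365 (SD, n = 4 each). The glucose means of acu07846_1 were 29.3 ± 17.5 in BCC199 and 0 in HUT2365. In wheat bran-soybean, both strains were close to 0 for these IDs on day 3, and on day 6 the strains did not overlap. Averaged over days, the strain difference of acu07232_1 (adjusted p = 0.019) did not pass without either HUT2365 library of day 3, and that of acu03520_1 (adjusted p = 0.022) did not pass without either of day 6 (limma).

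By day, further IDs joined those already described at the top. On day 6 acu00097_2 joined acu00558_2 at the top, with 2072 and 1438 normalized reads in HUT2365 and 0 reads in BCC199, at least 516-fold higher in HUT2365. It had 1369.7 and 975 in HUT2365 on day 3, where BCC199 also had 0 reads. acu01034_1 joined acu07822_1 among the lower IDs of day 6, with 0 reads in HUT2365, against 4068 and 4009 normalized reads in BCC199, at least 1329-fold lower in HUT2365. On day 3 acu00163_2 was next to acu00558_2, with 3245 and 4999 normalized reads in HUT2365, against 0 and 0.935 in BCC199 (log2 difference 11.50, SE 1.48, adjusted p = 0.00030, limma). Its HUT2365 libraries of day 6 lay far apart, at 4297 in replicate A and 93.2 in replicate B, and with weights from the read counts its day 3 difference did not pass (adjusted p = 0.075, limma). acu03732_1, next to acu00442_2 among the lower IDs of day 3, had 0 reads in HUT2365 and 5434 and 7555 normalized reads in BCC199, at least 1823-fold lower in HUT2365.

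The difference in wheat bran-soybean was then set beside that of the same strains in glucose, measured in 8 other libraries. In glucose 5466 of 8304 IDs were called (65.8%), 2763 higher in HUT2365 (33.3%) and 2703 lower (32.6%). This share was close to that in wheat bran-soybean. The BCC199 glucose libraries of day 3 lay far apart, with an SD over IDs of 0.797 for the log2 difference between them. That SD was between 0.432 and 0.442 in the other glucose pairs, and 0.849 in the HUT2365 pair of day 3 in wheat bran-soybean. Over the 8222 IDs tested in both media, 5514 passed in wheat bran-soybean and 5400 passed in glucose. The same direction was called in both for 3064, which is 55.6% of the calls in wheat bran-soybean and 56.7% of those in glucose, 1580 of them higher and 1484 lower in HUT2365. Opposite directions were called for 724, or 13.1% of the calls in wheat bran-soybean and 13.4% of those in glucose. Another 1726 IDs were called in wheat bran-soybean alone, 1612 in glucose alone and 1096 in neither. Across these IDs, which are not independent replicates, the differences had r = 0.570 and Spearman's rho = 0.501, lower than between the days. With the HUT2365 library of day 3, replicate B, left out, 8212 IDs were tested in both media, 3068 were called in the same direction and 720 in opposite directions (r = 0.582).

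The largest differences of wheat bran-soybean were mostly present in glucose as well, among IDs with enough reads in both media. Of the 423 IDs called at 16-fold or more in wheat bran-soybean, 387 were tested in both. Of these 387, 310 were called in the same direction in glucose, 30 in the opposite direction and 47 were not called. The rest of the 423 had too few reads in glucose to be tested there, so the count of 310 leaves them out. The glucose values of the IDs named first differ in how far they follow the difference of wheat bran-soybean. acu00442_2 had 1.80 and 0 normalized reads in HUT2365 on day 6 in glucose and 0 on day 3, against 743 and 812 in BCC199 on day 6 and 764 and 4619 on day 3 (log2 difference -9.87, SE 0.65, adjusted p = 3.8e-06, limma). The strain difference of acu00558_2 was far smaller in glucose, with a mean of 15.1 ± 4.45 normalized reads in HUT2365 and 1.92 ± 0.910 in BCC199 (SD, n = 4 each; log2 difference 2.48, SE 0.41, adjusted p = 0.00077, limma). For acu03732_1, which was not among the 387, the 8 glucose libraries held 1 read in HUT2365 and 1 in BCC199. Its difference of wheat bran-soybean was thus not detectable there at this depth.

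The IDs that led in glucose also differed in wheat bran-soybean. acu00020_2, with 0 reads in BCC199 in glucose and at least 5448-fold higher in HUT2365 there, had 367 and 874 normalized reads in HUT2365 on day 6 in wheat bran-soybean and 83.8 and 484 on day 3, against 3 reads in BCC199 in all (ratio 569.6, interval 195 to 2765). acu05635_1 had 5037 and 4471 normalized reads in HUT2365 on day 6 in wheat bran-soybean and 9331 and 3525 on day 3, against 29.6 and 7.02 in BCC199 on day 6 and 2.06 and 4.67 on day 3. Its difference was 9.33 in wheat bran-soybean (SE 0.60, adjusted p = 5.8e-06) and 10.20 in glucose (SE 0.79, adjusted p = 9e-06, limma). The interaction by medium, described next, did not pass with all libraries (-0.87, interval -3.14 to 1.41) and passed without the BCC199 glucose library of day 3, replicate B (-1.92, adjusted p = 0.021, limma). acu04793_1 had 12.2 and 23.8 normalized reads in HUT2365 on day 6 in wheat bran-soybean and 8.82 and 85.1 on day 3, against 31434 and 40572 in BCC199 on day 6 and 18917 and 18510.3 on day 3. Like acu01168_1 it was lower in HUT2365 in both media, at log2 differences in glucose of -12.89 for acu04793_1 (SE 0.43, adjusted p = 1.3e-07) and -11.91 for acu01168_1 (SE 0.28, adjusted p = 5.9e-08, limma).

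Whether the difference itself changed with the medium was tested over the 16 libraries. The strain by medium interaction, the difference in wheat bran-soybean minus that in glucose, passed for 4575 of 8429 IDs (54.3%), 2331 above 0 (27.7%) and 2244 below 0 (26.6%; limma, Benjamini-Hochberg), and for 4540 without the HUT2365 library of day 3, replicate B. Of the 1726 IDs called in wheat bran-soybean alone, the interaction passed for 1319. Of the 3064 IDs called in the same direction, it passed for 1267. It passed for all 724 IDs called in opposite directions, but rests on the same values, so this is no separate evidence. Of these 724, 374 were higher in HUT2365 in wheat bran-soybean and lower in glucose, and 350 were lower in wheat bran-soybean and higher in glucose.

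**Figure D4:**
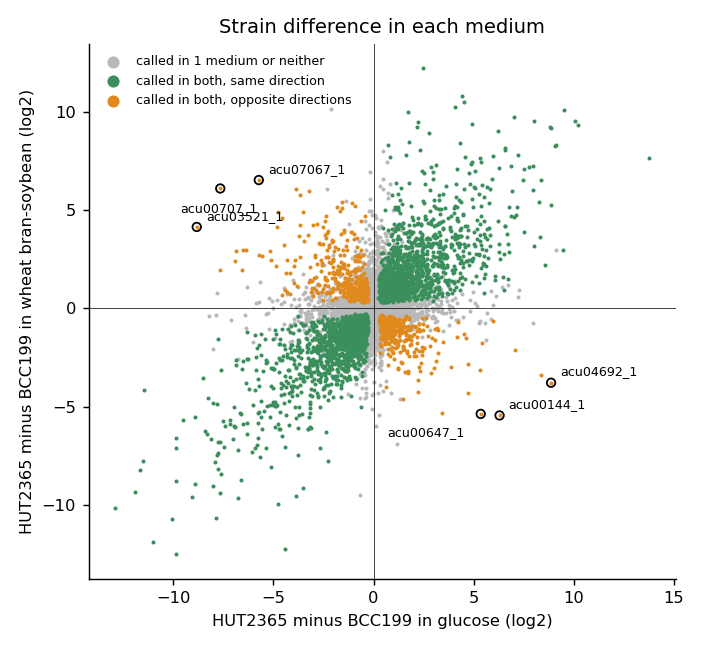
The log2 difference between HUT2365 and BCC199 in wheat bran-soybean (vertical axis) is plotted against that in glucose (horizontal axis) for the 8222 IDs tested in both media. Green points were called in both media in the same direction (3064), orange points in opposite directions (724), grey points in 1 medium or neither, and circles mark 6 IDs described in the text. The cloud runs from the lower left to the upper right (r = 0.570), with the circled IDs far out in the other corners.

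The IDs with opposite differences changed sides in several ways. acu00707_1 had 178 and 188 normalized reads in HUT2365 on day 6 in wheat bran-soybean and 181 and 151 on day 3, against 1.10 and 2.34 in BCC199 on day 6 and 5.16 and 0 on day 3 (log2 difference 6.09, SE 0.55, adjusted p = 3.1e-05, limma). In glucose it had between 115 and 192 normalized reads in HUT2365, against between 19571 and 50226 in BCC199 (log2 difference -7.65, SE 0.30, adjusted p = 2.9e-07, limma). HUT2365 thus held this ID at a like level in both media, and the sign was set by BCC199, low in wheat bran-soybean and high in glucose.

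acu07067_1 changed in both strains. In wheat bran-soybean it had 1013 and 733 normalized reads in HUT2365 on day 6 and 288 and 239 on day 3, against 1.10 and 11.7 in BCC199 on day 6 and 6.19 and 2.80 on day 3 (log2 difference 6.52, SE 0.62, adjusted p = 3.9e-05, limma). In glucose it had 2 reads in HUT2365 in all, against between 62.7 and 81.0 normalized reads in BCC199 (log2 difference -5.73, SE 0.36, adjusted p = 3e-06, limma). acu03521_1 had the second largest interaction above 0 (12.97, SE 1.43, adjusted p = 1.1e-05, limma), most of it from glucose. There it had between 50.5 and 72.7 normalized reads in HUT2365, against between 16802 and 40233 in BCC199. In wheat bran-soybean it had 23.4 and 9.14 in HUT2365 on day 6 and 1.76 and 306 on day 3, against 1 read in BCC199 in all. That difference of 4.14 rested on scattered libraries (SE 1.30, adjusted p = 0.021) and did not pass without the HUT2365 library of day 6, replicate A (adjusted p = 0.057, limma). On day 3 alone it was 4.86 with both HUT2365 libraries and 1.47 without replicate B.

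In the opposite direction, acu00144_1 and acu00647_1 had a similar pattern at different levels. acu00144_1 had 12.2 and 21.0 normalized reads in HUT2365 on day 6 in wheat bran-soybean and 39.7 and 115 on day 3, against 837 and 617 in BCC199 on day 6 and 3035 and 3014 on day 3 (log2 difference -5.43, SE 0.34, adjusted p = 5.1e-06, limma). In glucose it had between 23727 and 29997 normalized reads in HUT2365, against between 56.5 and 1101 in BCC199 (log2 difference 6.29, SE 0.68, adjusted p = 6.3e-05, limma). acu00647_1 had 3.34 and 2.74 normalized reads in HUT2365 on day 6 in wheat bran-soybean and 6.17 and 20.9 on day 3, against 152 and 121 in BCC199 on day 6 and 593 and 638 on day 3 (log2 difference -5.35, SE 0.38, adjusted p = 9.7e-06, limma). In glucose it had between 2779.9 and 3859 in HUT2365, against between 15.9 and 271 in BCC199 (log2 difference 5.35, SE 0.64, adjusted p = 0.00011, limma). In both media and for both IDs the strains did not overlap. acu04692_1 had the largest interaction below 0 (-12.63, SE 0.53, adjusted p = 8.1e-09, limma). It had between 11.1 and 25.6 normalized reads in HUT2365 in wheat bran-soybean, against between 192 and 395 in BCC199, and in glucose between 604 and 1176 in HUT2365, against 5 reads in BCC199 in all.

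**Figure D5:**
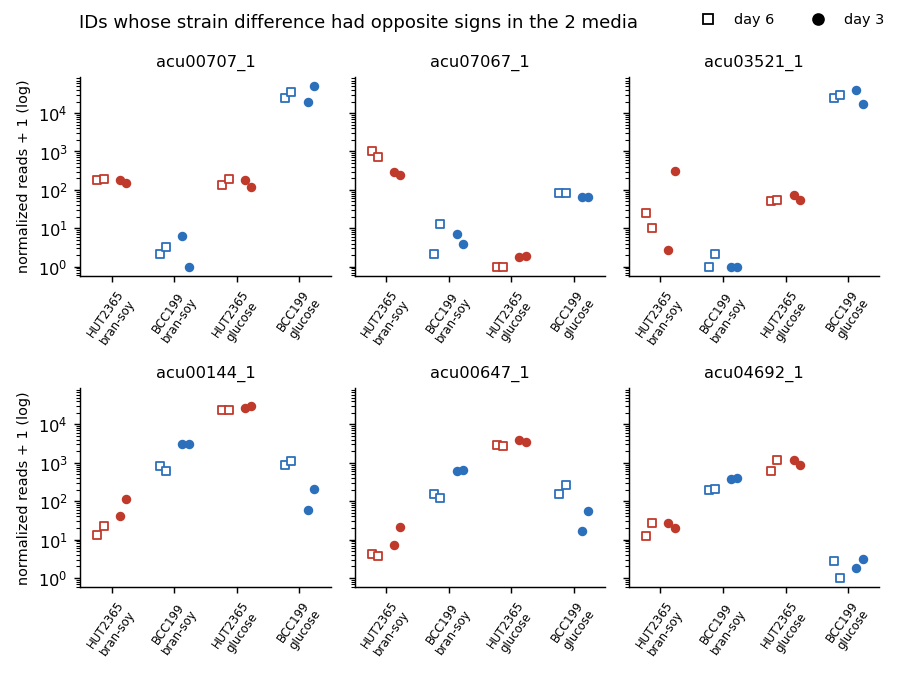
Normalized reads plus 1 (log axis) of 6 IDs whose strain difference had opposite signs in the 2 media, 1 panel per ID, with HUT2365 in red to the left of BCC199 in blue for wheat bran-soybean and then for glucose. Open squares are day 6 and filled circles day 3, each point is 1 library, and a value of 1 on the axis means 0 reads. In the upper row HUT2365 is above BCC199 in wheat bran-soybean and below it in glucose, and in the lower row the order is turned round. For acu00707_1 the HUT2365 points stay between 115 and 192 normalized reads in both media.

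The abundant IDs differed in how far the medium mattered. For acu03489_1, chosen after its values were seen, the difference was -3.60 in wheat bran-soybean and -0.86 in glucose (SE 0.14, adjusted p = 0.00078), with an interaction of -2.74 (SE 0.30, adjusted p = 1.1e-05, limma). It had between 1009 and 1198 normalized reads in HUT2365 in glucose, against between 1621 and 2443 in BCC199, so both strains were higher in wheat bran-soybean and BCC199 more so. For acu06581_1, also chosen after its values were seen, the difference was 1.50 in wheat bran-soybean and 1.28 in glucose (SE 0.39, adjusted p = 0.017, limma). Its interaction did not pass (0.22, SE 0.54, adjusted p = 0.75, limma), and its difference in glucose did not pass without the HUT2365 glucose library of day 3, replicate B (adjusted p = 0.053), or that of day 6, replicate A (adjusted p = 0.054, limma).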

How the data were processed

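RNA from mycelium was sequenced on a HiSeq2000, per the labels' protocols, after depletion of ribosomal RNA and enrichment of messenger RNA. The submitters' processing notes list HISAT2 2.1.0, StringTie and Picard, with no roles. The genome build, annotation, counting, use of strand and normalization tool were not given in the sources used here. The values deposited by the authors are normalized read counts, a signal that is never negative, per ID and library. They are whole reads times 1 step per library plus a constant of 1 (100% of IDs within 0.02 of a step), from which reads were recovered.

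From these, log2 of the deposited values was modelled with limma 3.58.1 (R 4.3.3) with no further pseudocount, so a log2 difference is on the log2(normalized reads + 1) scale, understates changes of low IDs and is no bound where a strain had 0 reads. IDs entered a fit when 2 or more of its libraries had a value of 10 or higher. The variance had an intensity trend, and p-values were adjusted by Benjamini-Hochberg over all IDs of a fit, with a threshold of 0.05. The days were compared in a fit of 4 group means, the media in a fit of 16 libraries. Bounds used 3 reads per library. At most 2 IDs per direction and comparison were named. They were the largest differences among called IDs with 100 or more normalized reads on average in the higher strain and no overlap of libraries. For interactions, IDs without reads in a strain, prefixes, opposite calls and narrow intervals, they were the analogous leaders. The members, rules and tests were chosen with earlier results of these data known. Alternatives were a total constant of 2 or 11 on the log scale, no filter or one at 50, rescaling by trimmed means, quantile normalization, a fit of all 24 libraries, array weights, voom weights on the recovered reads, a fit of 4 group means averaged over days, a replicate block, and fits without each library in turn. The fits were checked on simulated data in which all libraries had the same spread. That check does not cover the unequal spreads of the libraries used here. Python 3.11.15 with pandas 2.3.3, scipy 1.17.1 and matplotlib 3.10.9 was used for the rest.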

Additional observations from a re-analysis of the deposited data

Results flagged for a closer look

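For 4 IDs in wheat bran-soybean the difference between HUT2365 and BCC199 itself differed between the days, by the strain by day interaction (limma, day 6 minus day 3, log2 scale). It was 10.31 for acu07232_1 and 6.83 for acu07825_1, both expressed in BCC199 on day 3. It was -8.27 for acu03520_1 and -7.93 for acu07846_1, both expressed in BCC199 on day 6.

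For another 6 IDs the difference between the strains differed between the media and had opposite signs in them, by the strain by medium interaction (limma, wheat bran-soybean minus glucose, log2 scale). It was 13.75 for acu00707_1, 12.97 for acu03521_1 and 12.25 for acu07067_1, which were higher in HUT2365 in wheat bran-soybean. It was -12.63 for acu04692_1, -11.72 for acu00144_1 and -10.70 for acu00647_1, which were lower in HUT2365 in wheat bran-soybean. The wheat bran-soybean difference of acu03521_1 (4.14, SE 1.30) rested on scattered HUT2365 libraries, which held between 1.76 and 306 normalized reads.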

How the results depend on the processing

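The count of IDs called between HUT2365 and BCC199 in wheat bran-soybean was 5589, ran from 5381 to 6105 over the alternatives that kept all 8 libraries, and from 5010 to 5551 with a library left out. The counts on either day, in glucose and for the strain by medium interaction stayed within 1.5 times their reported values. The strain by day interaction did not: with a library left out, its 927 calls became between 256 and 1591, while the other alternatives gave between 694 and 1004, and the cause was not tested. With a single library left in a group, that library was assumed to vary like the others. Each named ID was also recomputed in the comparison that named it, 732 values in all, of which none changed sign and 3 no longer passed, those of acu00163_2 and acu07825_1 given above. With the replicate block, 5471 IDs were called for the strain difference in wheat bran-soybean and 897 for the strain by day interaction, and no named ID lost the call that named it. The letters A and B mark no shared culture in the labels, and the deviations of same-lettered libraries correlated across IDs between -0.091 and 0.069 over 6 pairs of groups. With 2 libraries per group and day, differences of low IDs are limited by counting, and p-values by the spread of few libraries.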

Other observations

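The third strain, BCC56535, was measured in 4 libraries of wheat bran-soybean, which entered the comparisons above only in the alternative fit of all 24 libraries. For the 2888 IDs called higher in HUT2365, its mean log2 level lay nearer to HUT2365 for 1516 and nearer to BCC199 for 1372. For the 2701 IDs called lower in HUT2365, that level lay nearer to HUT2365 for 1452 and nearer to BCC199 for 1249. Where HUT2365 and BCC199 differed by at least 16-fold, BCC56535 lay between them for 169 of the 242 IDs higher in HUT2365. It did so for 113 of the 181 IDs lower in HUT2365. These IDs were chosen for a wide gap between HUT2365 and BCC199, which favours a level of BCC56535 inside that gap. The share over all called IDs was not counted, so whether BCC56535 was intermediate between these strains was not tested.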
